A study of Rattus norvegicus with 12 samples.

Results

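The data describe 4 rat genes that carry an Ensembl identifier and no name in the deposited count table: ENSRNOG00000068307, ENSRNOG00000064743, ENSRNOG00000062337 and ENSRNOG00000068039. They are 4 of the 6518 genes without a name, and of 30560 genes in all, in a table that also holds 37 genes of the mitochondrial genome. They were chosen by measured values: their share of nuclear counts was higher in those mitochondria libraries that held more mitochondrial genome counts per nuclear count. That relation over the mitochondria libraries is therefore given as a description, and only measures outside it were tested. Over the muscle libraries the same relation did not pass a test for any of the 4. In the main fit 0% of the 12642 nuclear genes tested passed it, so this was not particular to the 4. Over the narrow range of ratios in muscle, that fit could not tell no relation from the one seen in mitochondria. The 4 genes count as nuclear because their entries lack the name prefixes of the mitochondrial genome. The table gives no chromosome or function for them, and the RefSeq gene table used here lists no Ensembl identifiers to look them up by.

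One group of 6 libraries came from mitochondria of the gastrocnemius, a muscle of the calf sampled in its inner red portion, where oxidative fibres are common, and the other group of 6 came from whole tissue of the same muscle in the same 6 animals. All animals were wild-type male Wistar Kyoto rats aged 9 weeks on a chow diet. Immunoprecipitation from fresh tissue gave the mitochondria, which were then exposed to RNase A and proteinase K to digest RNA and protein outside the organelle, while whole muscle was snap frozen and received no such treatment. Libraries were depleted of ribosomal RNA and started from 10 ng of RNA for mitochondria and 50 ng for muscle, so that tissue handling, enzyme treatment and input all differ between the groups and cannot be told apart. The study asked which RNAs, noncoding ones encoded in the nucleus among them, are found in muscle mitochondria.

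Mammalian mitochondria transcribe both strands of their own small genome into long precursors. These are cut into ribosomal RNAs, transfer RNAs and the mRNAs of respiratory chain subunits. RNA made in the nucleus reaches a mitochondrial preparation either inside the organelle or as material that stays with it through the isolation. A count per gene does not separate these, nor does it separate reads that match more than one place in the genome.

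The mitochondria libraries held 720111 to 1785865 counts and the muscle libraries 24309444 to 32055355. Counts of the mitochondrial genome per nuclear count spanned 0.149 to 1.06 in mitochondria and 0.359 to 0.560 in muscle, a 7.14-fold and a 1.56-fold range. In mitochondria the ratio was 0.149 in replicate 3, 0.255 in replicate 1, 0.406 in replicate 2, 0.701 in replicate 5, 0.766 in replicate 6 and 1.06 in replicate 4. In muscle it was 0.359 in replicate 1, 0.374 in replicate 5, 0.478 in replicate 2, 0.547 in replicate 6, 0.550 in replicate 3 and 0.560 in replicate 4. Levels below are in nuclear CPM, counts per 1000000 nuclear counts of the library, a share that the mitochondrial genome does not enter. Defining muscle mRNAs, 10 genes such as Acta1, Ckm and Ttn, were all found and summed to 2268 to 4708 nuclear CPM in mitochondria and 235439 to 296952 in muscle. Of the lists for other cell types, endothelial markers summed to 312 to 350 nuclear CPM in mitochondria and 356 to 701 in muscle, and smooth muscle markers to 247 to 310 in mitochondria and 282 to 460 in muscle. Macrophage markers summed to 247 to 330 in mitochondria and 31.9 to 60.1 in muscle, and adipocyte markers to 128 to 150 in mitochondria and 0.192 to 5.37 in muscle. Schwann cell markers summed to 148 to 186 in mitochondria and 46.2 to 190 in muscle, and the 2 red blood cell markers found to 14.2 to 32.9 in mitochondria and 4.23 to 9.16 in muscle. Higher levels in mitochondria were not particular to macrophage and adipocyte markers. With nuclear counts as library size, 88.4% of the 24675 genes tested were estimated higher in mitochondria. The part of the listed cell types in the results below was not tested.

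ENSRNOG00000068307 was the most counted of the 4, and ranked 4 of 6518 unnamed genes in mitochondria and 1 of 6518 in muscle by mean nuclear CPM. It had 425, 2282, 766, 2826, 3104 and 2130 nuclear CPM in mitochondria replicates 1 to 6, from 244 to 2691 counts. In muscle replicates 1 to 6 it had 1802, 1491, 1903, 8351, 3445 and 2903 nuclear CPM, from 31056 to 130105 counts. Mitochondria replicates 1 and 3 were low, muscle replicate 4 was far above the other muscle libraries, and the groups overlapped.

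ENSRNOG00000064743 had 27.9, 173, 40.1, 162, 174 and 103 nuclear CPM in mitochondria replicates 1 to 6. In muscle it had 24.1, 36.0, 30.5, 105, 69.9 and 63.6 nuclear CPM in the same order. The low mitochondria libraries were again replicates 1 and 3, with 16 and 31 counts, and the 3 lowest muscle libraries were replicates 1 to 3. In all 6 animals the share was higher in mitochondria than in muscle of that animal, although the ranges of the groups overlapped. At least 71.5% of nuclear genes with any count were likewise higher in all 6 animals, as their shares lay wholly higher in mitochondria.

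ENSRNOG00000062337 was the least counted of the 4 in mitochondria, with 266 counts over the group. Its share there was 10.5, 61.6, 10.3, 69.2, 91.1 and 56.4 nuclear CPM in replicates 1 to 6. The low values of replicates 1 and 3 rest on 6 and 8 counts. Their 95% exact Poisson intervals, which cover counting error only, were 3.84 to 22.8 and 4.47 to 20.4 nuclear CPM. The gene was chosen on values of these libraries, so the intervals are given as a description. The part of counting error in the low values was not tested. In muscle the gene had 9.18, 16.1, 12.7, 118, 59.0 and 21.7 nuclear CPM, a 12.9-fold range led by replicates 4 and 5.

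ENSRNOG00000068039 had 73.2, 104, 42.7, 155, 138 and 64.6 nuclear CPM in mitochondria replicates 1 to 6. In muscle it had 8.77, 6.05, 6.24, 11.5, 9.40 and 12.3 nuclear CPM. This was the one gene of the 4 whose groups did not overlap, and its range within muscle, 2.04-fold, was the narrowest of the 4. Such separation was common: of nuclear genes with any count, 71.5% had shares wholly higher in mitochondria.

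**Figure D1:**
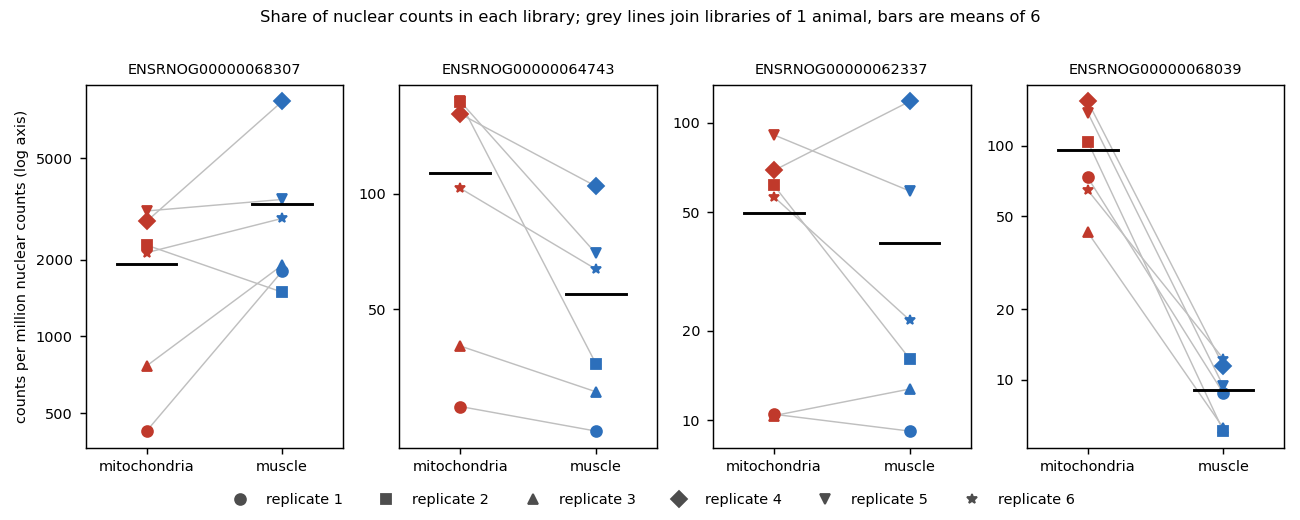
Nuclear CPM, counts per 1000000 nuclear counts (log axis), of each of the 4 genes in 6 mitochondria libraries (red) and 6 muscle libraries (blue), with symbols for replicates, grey lines joining the libraries of an animal and black bars at the group means. Muscle replicate 4 stands at 8351 for ENSRNOG00000068307, and the groups stay apart for ENSRNOG00000068039 alone, at 42.7 to 155 in mitochondria and 6.05 to 12.3 in muscle. Of nuclear genes with any count, 71.5% lie wholly higher in mitochondria.

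The spread between libraries of a group was wide for 3 of the 4 genes, in muscle as well as in mitochondria. ENSRNOG00000062337 had an SD of log2 share of 1.41 in mitochondria and 1.41 in muscle, where it ranked 23 of 13533 nuclear genes with a mean of at least 10 counts. ENSRNOG00000068307 had 1.17 in mitochondria and 0.91 in muscle, where 0.761% of the genes had an SD as large. ENSRNOG00000064743 had 1.16 in mitochondria and 0.81 in muscle, and 1.23% of genes were as variable in muscle. For the median gene the SD was 0.28 in mitochondria and 0.23 in muscle. ENSRNOG00000068039 was less variable, with 0.71 in mitochondria and 0.42 in muscle, a value that 14.9% of genes reached. The mitochondria values belong to the libraries that chose the genes, and the muscle values do not.

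Over the 6 mitochondria libraries, the relation that chose the genes was as follows. Slopes are changes in log2 share per unit of log2 ratio of mitochondrial genome to nuclear counts, from edgeR's quasi-likelihood model with nuclear counts as library size: 0 means a fixed share of nuclear counts and 1 a fixed ratio to mitochondrial genome counts. The slope was 0.87 for ENSRNOG00000062337, 0.82 for ENSRNOG00000068307, 0.65 for ENSRNOG00000064743 and 0.51 for ENSRNOG00000068039. They ranked 1, 2, 6 and 43 of 19760 nuclear genes with a mean of at least 10 counts in mitochondria, whose median slope was -0.000439. Pearson's r between share and ratio was 0.76, 0.81, 0.67 and 0.74 in the same order of genes, and Spearman's rho 0.71, 0.66, 0.49 and 0.66. Without replicates 3 and 4, whose ratios lie farthest from the median, r was 0.74, 0.76, 0.48 and 0.21. Depth moved the same way: the r between share and nuclear counts of a mitochondria library was 0.68, 0.71, 0.83 and 0.40, and replicate 1, low in 3 of the genes, was also the shallowest library. The part of depth in the relation was not tested.

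The genes next to them in that order were mixed. Ranks 3, 4, 5, 7 and 8 belonged to a gene of the 5_8S_rRNA family (ENSRNOG00000070263, slope 0.80), a ribosomal RNA of the large cytosolic subunit, to ENSRNOG00000066402 (0.77), which has no name, to a gene of the Metazoa_SRP family (ENSRNOG00000059449, 0.67), the RNA of the signal recognition particle that brings ribosomes to the endoplasmic reticulum, to Lrit2 (0.65) and to another Metazoa_SRP gene (ENSRNOG00000055825, 0.64). Around ENSRNOG00000068039 stood Mrpl20, a protein of the mitochondrial ribosome, and Egr4, a transcription factor, at 0.51 each, and just below it Irgm and Gpx5 at 0.51 each. In muscle, the slope was -0.20 for the 5_8S_rRNA gene, -0.31 and 0.09 for the Metazoa_SRP genes, -2.14 for ENSRNOG00000066402, 0.29 for Mrpl20 and 0.48 for Irgm. Lrit2, Egr4 and Gpx5 had too few counts there for a slope.

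**Figure D2:**
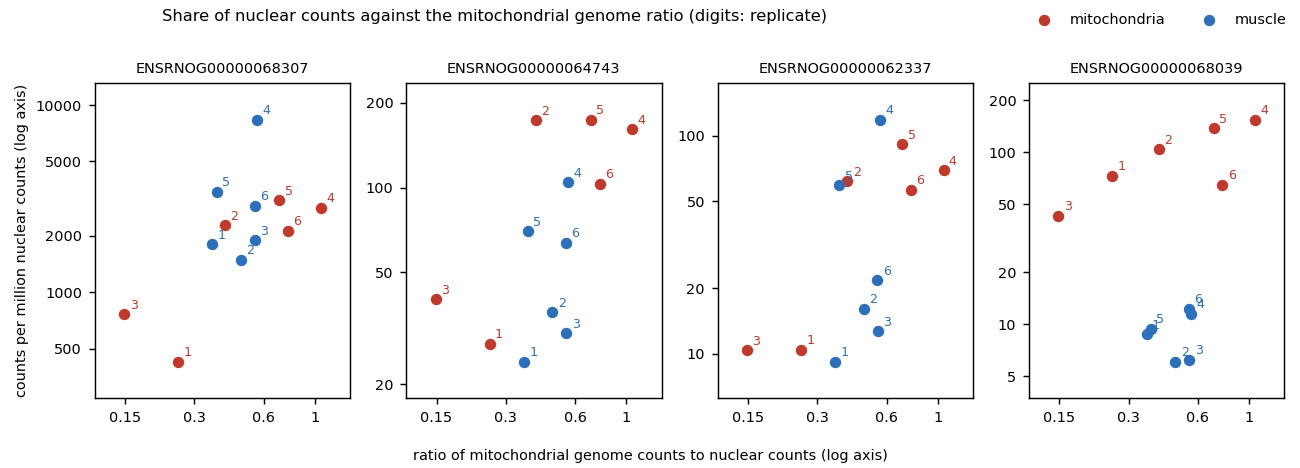
Nuclear CPM of each gene against the ratio of mitochondrial genome to nuclear counts (both log axes), with a red point for each mitochondria library, a blue point for each muscle library and the replicate as a digit. The mitochondria points climb over a ratio of 0.149 to 1.06, while the muscle points sit within 0.359 to 0.560 and spread vertically.

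The same relation was then tested over the 6 muscle libraries, which had no part in the choice. None of the 4 genes passed in edgeR, and 0% of the 12642 nuclear genes tested did, in either direction. The slope was 1.36 ± 0.93 for ENSRNOG00000068307 (SE, 95% interval -0.70 to 3.42, edgeR adjusted p = 0.509) and 1.23 ± 1.46 for ENSRNOG00000062337 (-1.99 to 4.46, edgeR adjusted p = 0.710). It was 0.98 ± 0.81 for ENSRNOG00000064743 (-0.82 to 2.77, edgeR adjusted p = 0.591) and 0.21 ± 0.51 for ENSRNOG00000068039 (-0.91 to 1.33, edgeR adjusted p = 0.871). Each interval holds both 0 and the slope that the gene had in mitochondria, so on this ratio a slope of 0 and the slope in mitochondria could not be told apart over its narrow range. The first 3 slopes were high among all genes, whose median was 0.26: 2.35%, 3.23% and 6.67% of genes had a slope at least as high, in the order ENSRNOG00000068307, ENSRNOG00000062337 and ENSRNOG00000064743, against 55.1% for ENSRNOG00000068039. A slope grows with the spread of a gene, and these 3 genes were among the most variable in muscle. Pearson's r with the same ratio does not grow with spread. By r, 51.2%, 60.8% and 52.8% of genes were at least as high, in the same order. Across all genes 1932 had an unadjusted p under 0.05 in edgeR, and DESeq2 called 254 rising and 30 falling, none of them among the 4.

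The slopes were steeper when the ratio came from the 13 mitochondrial mRNAs alone, which ran from 0.0882 to 0.139 per nuclear count in muscle. The slope was then 2.56 for ENSRNOG00000068307 (95% interval 0.95 to 4.16, edgeR adjusted p = 0.347) and 1.66 for ENSRNOG00000064743 (0.03 to 3.29, edgeR adjusted p = 0.467). Both intervals, unadjusted for the number of genes, exclude 0. It was 2.46 for ENSRNOG00000062337 (-0.31 to 5.23, edgeR adjusted p = 0.501) and 0.98 for ENSRNOG00000068039 (-0.14 to 2.09, edgeR adjusted p = 0.504). In the order given, the 4 genes ranked 15, 152, 19 and 1044 of 12642 genes, and no gene passed after adjustment, with 1331 at an unadjusted p under 0.05. By Pearson's r on this ratio, which does not grow with spread, 10.1%, 18.4%, 23.1% and 23.6% of genes were at least as high. Without muscle replicate 4, which had the highest mRNA ratio, the slopes were 0.46, 0.42, -1.97 and 1.06, a check added after seeing the data.

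On the ratio of the whole mitochondrial genome, muscle replicate 4 alone decided the sign for ENSRNOG00000068307 and ENSRNOG00000062337. The slope of ENSRNOG00000068039, at 0.21 ± 0.51 (SE), was small and turned negative without replicate 4 and also without replicate 6, at -0.13. Without muscle replicate 4, which joins the highest ratio to the highest shares of 3 genes, the slope was -0.27 for ENSRNOG00000068307, -1.65 for ENSRNOG00000062337, 0.0494 for ENSRNOG00000064743 and -0.0710 for ENSRNOG00000068039. Without muscle replicate 5, which has high shares at a low ratio, it was 2.26, 4.22, 2.45 and 0.38 in the same order.

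**Figure D3:**
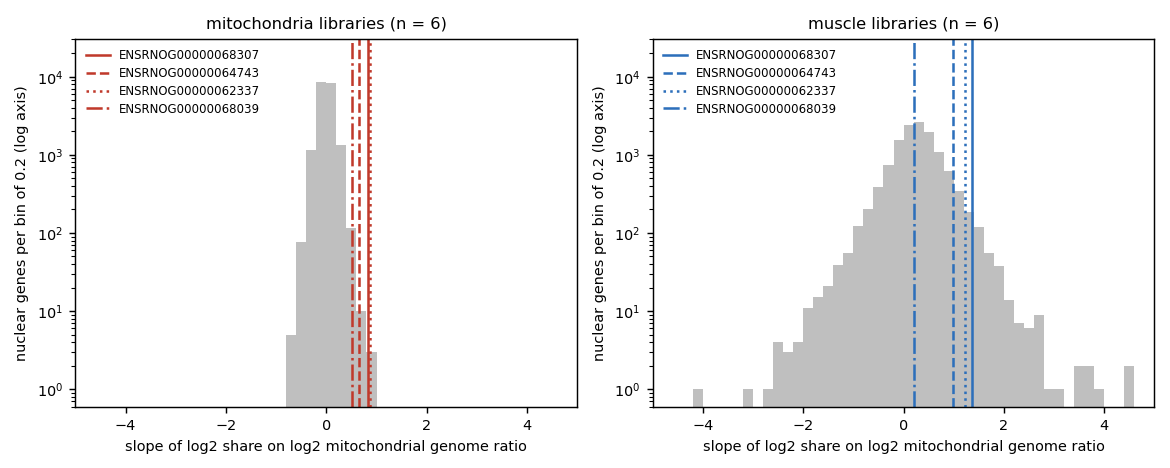
Number of nuclear genes (log axis, bins of 0.2) by the slope of log2 share on the log2 ratio of mitochondrial genome to nuclear counts, over 6 mitochondria libraries (left) and 6 muscle libraries (right), with lines at the 4 genes. The lines lie at 0.51 to 0.87 at the upper edge in mitochondria, and at 0.21 to 1.36 inside a wider distribution in muscle.

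Measured as a plain correlation over the 6 muscle libraries, the place of the shares among all genes depended on which mitochondrial counts formed the ratio. With the whole mitochondrial genome, Pearson's r was 0.38 for ENSRNOG00000068307, 0.36 for ENSRNOG00000064743, 0.25 for ENSRNOG00000062337 and 0.19 for ENSRNOG00000068039 (n = 6, exact two-sided permutation p = 0.556, 0.444, 0.672 and 0.714, adjusted p over all nuclear genes 0.808, 0.744, 0.870 and 0.890). Spearman's rho was 0.49 for the first 3 genes and 0.26 for ENSRNOG00000068039 (n = 6, exact permutation p = 0.356 and 0.658, adjusted p = 0.768 and 0.906). Of all 12642 nuclear genes, 51.2%, 52.8%, 60.8% and 65.0% had an r at least as high, in the order of the r values. Without replicates 1 and 5, whose ratios lie farthest from the median, r was 0.58, 0.55, 0.48 and 0.61. With 6 libraries the smallest p that the pairings allow is 0.00139, and 0% of genes passed after adjustment. Adjusted over 12642 genes, even that p cannot pass unless many genes reach it together. Failure to pass after adjustment, here and in the correlations below, therefore says little about a single gene.

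With the 13 mRNAs in the ratio, r was 0.80 for ENSRNOG00000068307, 0.69 for ENSRNOG00000064743, 0.64 for ENSRNOG00000062337 and 0.64 for ENSRNOG00000068039 (n = 6, exact two-sided permutation p = 0.0556, 0.131, 0.135 and 0.169, adjusted p = 0.514, 0.621, 0.626 and 0.647). Spearman's rho was 0.66, 0.37, 0.37 and 0.71 (n = 6, exact permutation p = 0.175, 0.497, 0.497 and 0.136). Of all genes, 10.1%, 18.4%, 23.1% and 23.6% had an r at least as high, so all 4 stood above the middle gene here, against below it with the whole genome. The relation rested on the libraries with the highest mRNA ratios: without replicates 4 and 6, which lie farthest from the median, r was -0.21, -0.44, -0.42 and -0.35, and without replicate 4 alone it was 0.19, 0.16, -0.31 and 0.51. With AY172581.9 and AY172581.24 in the ratio, r was 0.25, 0.25, 0.13 and 0.0569, and 60.0% to 71.0% of genes reached it.

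The muscle shares ran against another measure, the number of nuclear counts in the library. Muscle replicate 4 had the fewest nuclear counts, 15579407, and the highest shares of 3 of the genes, and replicate 1 had the most, 22116750. Pearson's r with nuclear counts was -0.86 for ENSRNOG00000068307, -0.94 for ENSRNOG00000064743, -0.81 for ENSRNOG00000062337 and -0.77 for ENSRNOG00000068039 (n = 6, exact two-sided permutation p = 0.0139, 0.00833, 0.0361 and 0.0736), and Spearman's rho was -0.89 for the first 3 and -0.77 for the last (n = 6, exact permutation p = 0.0333 and 0.103). None passed after adjustment over all nuclear genes (n = 6, exact permutation adjusted p = 0.999 for each r and 1.0 for each rho), where 0% of 12642 genes did. This relation was looked at after the values were seen, and a share has the nuclear counts in its denominator. Without replicates 4 and 6, which lie farthest from the median count, r was -0.78, -0.91, -0.87 and -0.16, so that for ENSRNOG00000068039 it rested on those libraries. Without replicate 4 alone it was -0.73, -0.86, -0.43 and -0.73. The direction is opposite to that in mitochondria, where the r with nuclear counts was 0.40 to 0.83, and that difference was not tested.

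Set against single genes of the mitochondrial genome, the values spread more widely in muscle than in mitochondria, a difference that was not tested. In mitochondria, the r between the share of a member and the ratio of a mitochondrial gene to nuclear counts had a median of 0.79 for ENSRNOG00000068307, 0.76 for ENSRNOG00000062337, 0.67 for ENSRNOG00000068039 and 0.64 for ENSRNOG00000064743 over 22 mitochondrial genes, as a description. Most mitochondrial mRNAs and the 2 most counted mitochondrial genes, AY172581.9 and AY172581.24, gave nearly the same value there: for ENSRNOG00000068307 r was 0.82 with AY172581.9, 0.82 with AY172581.24, 0.76 with Mt-co1, which encodes a core subunit of complex IV, and 0.80 with Mt-nd5, which encodes a subunit of complex I. Lower values came with Mt-atp8, which encodes a subunit of ATP synthase, at 0.0147 to 0.181 over the 4 genes, and with AY172581.6, at -0.0745 to 0.313.

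In muscle the mitochondrial genes split. ENSRNOG00000068307 had an r of 0.18 with AY172581.9 and 0.33 with AY172581.24, which hold most mitochondrial counts, against 0.92 with Mt-nd5, 0.90 with Mt-nd2, 0.89 with Mt-nd4 and Mt-co2 and 0.87 with Mt-nd1. These mRNAs encode subunits of complex I, except Mt-co2, which encodes one of complex IV. High values were not particular to complex I. Outside it, r was 0.80 with Mt-atp6, 0.75 with Mt-cyb, 0.74 with Mt-co3, 0.65 with Mt-co1 and 0.48 with Mt-atp8. The complex I mRNAs Mt-nd4l and Mt-nd3 gave 0.67 and 0.49. With Mt-nd6, the complex I mRNA encoded on the opposite strand from the others, r was -0.15. The largest r of ENSRNOG00000068307, 0.96, was with AY172581.8, a rare gene with a mean of 48.3 counts in muscle, which also gave 0.91 with ENSRNOG00000062337 and 0.83 with ENSRNOG00000064743. ENSRNOG00000068039 was highest with Mt-co2, at 0.79, and lowest with Mt-nd6, at -0.53.

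Of 92 such relations over the muscle libraries, 4 members by 23 mitochondrial genes, 77 were positive, 8 had an unadjusted exact permutation p under 0.05 and 0 passed after adjustment over all nuclear genes, where 0% of genes did. Positive values were common among all 12642 nuclear genes: 75.2% had a muscle slope above 0 on the whole mitochondrial genome ratio and 73.9% on the 13 mRNA ratio. In those fits 1932 and 1331 of the 12642 genes had an unadjusted p under 0.05 in edgeR. Slopes on summed ratios are another measure than r with a single mitochondrial gene. For such r values, the share of all genes at an unadjusted p under 0.05 is not given here, so the 8 are not read as an excess. The 92 relations also share libraries and a denominator, so they are not independent. For ENSRNOG00000068307 the unadjusted p was 0.0403 with AY172581.8, 0.0292 with Mt-co2 and 0.0403 with Mt-nd5 (n = 6, exact permutation, adjusted p = 0.882, 0.577 and 0.537), and Spearman's rho was 0.77, 0.83 and 0.60 (n = 6, exact permutation p = 0.103, 0.0583 and 0.242). Leaving out the 2 libraries farthest from the median of each mitochondrial gene turned these 3 r values to 0.27, 0.28 and -0.13, so the relations rested on those libraries. Without muscle replicate 4, the median r over the 23 mitochondrial genes was 0.18 for ENSRNOG00000068307, 0.0829 for ENSRNOG00000064743 and -0.29 for ENSRNOG00000062337, against 0.65, 0.57 and 0.48 with all 6 libraries. For ENSRNOG00000068039 it was 0.45 without that library and 0.60 with it. Whether the counts kept the strands apart is not stated in the labels, so overlapping genes of opposite strands may share reads.

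**Figure D4:**
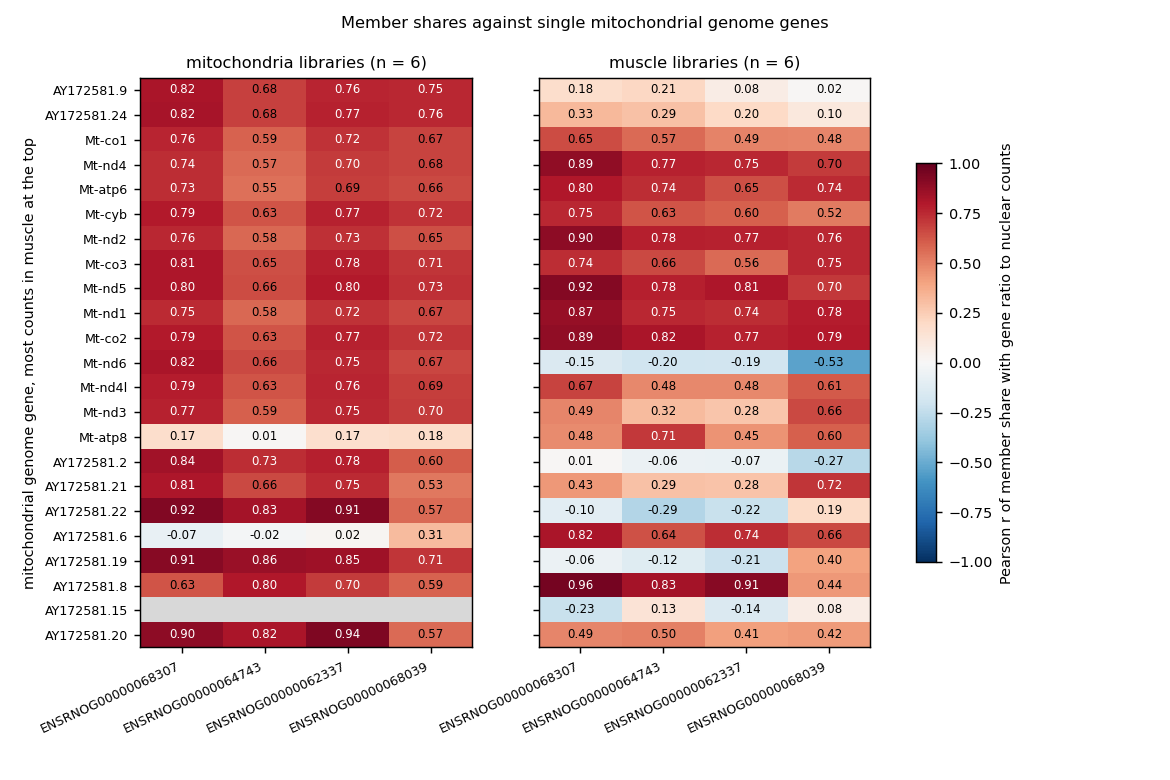
Pearson's r of the share of each gene with the ratio of each of 23 mitochondrial genome genes to nuclear counts, over 6 mitochondria libraries (left) and 6 muscle libraries (right), with grey where the mitochondrial gene had a mean under 10 counts. In mitochondria most squares lie near each gene's median of 0.64 to 0.79, whereas in muscle they run from -0.53 to 0.96.

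Of the 4 genes, 3 had shares that ran closely together in muscle. No pair passed a test adjusted over all genes, which a single pair could hardly pass with 6 libraries. Pearson's r between their shares was 0.97 for ENSRNOG00000068307 with ENSRNOG00000062337, 0.93 for ENSRNOG00000064743 with ENSRNOG00000062337 and 0.93 for ENSRNOG00000068307 with ENSRNOG00000064743 (n = 6, exact two-sided permutation p = 0.00694, 0.00139 and 0.00972, the second being the smallest that the pairings allow). Spearman's rho was 0.83, 1.0 and 0.83 (n = 6, exact permutation p = 0.0583, 0.00278 and 0.0583). Of the other nuclear genes, 0.111%, 0.222% and 0.665% had an r at least as high with the first gene of the pair, and 0% of nuclear genes passed after adjustment over all of them, these pairs included (n = 6, exact permutation adjusted p = 0.978, 1.00 and 0.978). Without the 2 libraries farthest from the median of the first gene, r was 0.70, 0.79 and 0.86, and without replicate 4 it was 0.85, 0.82 and 0.93. ENSRNOG00000068039 followed less closely, with 0.62, 0.73 and 0.53 against ENSRNOG00000068307, ENSRNOG00000064743 and ENSRNOG00000062337 (n = 6, exact permutation p = 0.158, 0.119 and 0.276, adjusted p = 0.997, 1.00 and 1.00). Spearman's rho of these pairs was 0.77, 0.60 and 0.60 (n = 6, exact permutation p = 0.103, 0.242 and 0.242), and r without the 2 libraries farthest from the median was 0.91, 0.85 and 0.57. Over the mitochondria libraries the same pairs gave 0.94 to 0.99 among the first 3 genes and 0.80 to 0.82 with ENSRNOG00000068039, as a description. These 6 pairs were looked at after the values were seen.

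The proportions between the genes were not alike in the kinds of library, given here as ratios of counts with no test. ENSRNOG00000068307 had 17.2 ± 2.67 counts per count of ENSRNOG00000064743 in mitochondria, with a range of 13.2 to 20.6, and 58.9 ± 16.0 in muscle, with a range of 41.4 to 79.8 (SD, n = 6 each), so these groups did not overlap. The ratio of ENSRNOG00000064743 to ENSRNOG00000062337 was 2.57 ± 0.75 in mitochondria, over 1.83 to 3.88, and 2.04 ± 0.82 in muscle, over 0.885 to 2.93, and these ranges overlapped. The ratio of ENSRNOG00000068307 to ENSRNOG00000068039 was 19.9 ± 8.79 in mitochondria and 348 ± 194 in muscle.

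Whether an animal with a high share in mitochondria also had a high share in muscle was examined over the 6 animals, likewise after the values were seen. Pearson's r was 0.56 for ENSRNOG00000068307, 0.64 for ENSRNOG00000064743, 0.60 for ENSRNOG00000062337 and 0.33 for ENSRNOG00000068039 (n = 6, exact two-sided permutation p = 0.260, 0.182, 0.176 and 0.471, adjusted p over 12033 nuclear genes of 0.975 for the first 3 and 0.986), and Spearman's rho was 0.60, 0.71, 0.83 and 0.20 (n = 6, exact permutation p = 0.242, 0.136, 0.0583 and 0.714). None passed, and 0% of genes did. The median r over all genes was 0.00213, and 13.4%, 9.34%, 11.2% and 27.1% of genes reached the r of each member. Without the 2 animals farthest from the median mitochondria share, r was 0.49, -0.0284, 0.38 and -0.18.

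The level in mitochondria against muscle was tested in a fit of all 24679 genes with enough counts, all 4 members among them, scaled by TMM in edgeR. Of the 4 genes, 3 fell in mitochondria and ENSRNOG00000068039 rose, where 30.3% of all genes tested were lower and 63% higher in mitochondria. The log2 fold change was -2.90 ± 0.37 for ENSRNOG00000068307 (SE, edgeR adjusted p = 1.71e-08), -1.04 ± 0.30 for ENSRNOG00000064743 (edgeR adjusted p = 0.00184) and -1.72 ± 0.47 for ENSRNOG00000062337 (edgeR adjusted p = 0.00110). It was 1.28 ± 0.21 for ENSRNOG00000068039 (edgeR adjusted p = 1.44e-06). The median over all genes was 2.51 on this scale and 6.82 over the 4846 unnamed genes tested, so all 4 genes lay below the middle gene. Without muscle replicate 4 the value was -0.69 for ENSRNOG00000064743 (edgeR adjusted p = 0.0333) and -0.98 for ENSRNOG00000062337 (edgeR adjusted p = 0.0294).

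The direction depends on the scaling for 2 of them. With nuclear counts as library size, under which the median of all genes was 4.67, the log2 fold change was 1.09 for ENSRNOG00000064743 (edgeR adjusted p = 0.00235) and 0.40 for ENSRNOG00000062337 (edgeR adjusted p = 0.441), against -0.78 for ENSRNOG00000068307 (edgeR adjusted p = 0.0454) and 3.43 for ENSRNOG00000068039 (edgeR adjusted p = 2.04e-14). With total counts the values were 0.98, 0.28, -0.92 and 3.32 in the same order. In DESeq2, ENSRNOG00000064743 and ENSRNOG00000062337 did not pass (DESeq2 adjusted p = 0.164 and 0.0519). On the share scale, ENSRNOG00000068307 averaged 1922 ± 1092 nuclear CPM in mitochondria and 3316 ± 2575 in muscle (SD, n = 6 each). ENSRNOG00000064743 averaged 113 ± 66.9 in mitochondria and 54.8 ± 30.6 in muscle, and ENSRNOG00000062337 averaged 49.9 ± 32.8 in mitochondria and 39.5 ± 42.6 in muscle. ENSRNOG00000068039 averaged 96.3 ± 43.9 in mitochondria and 9.04 ± 2.60 in muscle, a ratio of means of 10.6. Within animals, the share was higher in mitochondria than in muscle in 1 of 6 for ENSRNOG00000068307, 6 of 6 for ENSRNOG00000064743, 4 of 6 for ENSRNOG00000062337 and 6 of 6 for ENSRNOG00000068039. The groups did not overlap for 1 of the 4 genes, against 71.5% of nuclear genes with any count whose shares lay wholly higher in mitochondria. Genes of that 71.5% were therefore also higher in 6 of 6 animals. Within the bulk muscle libraries, fewer cells of a type and less RNA per cell cannot be told apart, and the mitochondria libraries hold organelles, so that their levels are per library and not per cell.

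Relative to mitochondrial genome counts, 3 of the 4 genes were not shown to differ between the kinds of library. In counts per 1000000 mitochondrial genome counts, ENSRNOG00000068307 had 1669, 5621, 5151, 2664, 4426 and 2781 in mitochondria replicates 1 to 6, and 5021, 3120, 3462, 14903, 9200 and 5306 in muscle replicates 1 to 6. ENSRNOG00000064743 had 109 to 427 in mitochondria and 55.4 to 187 in muscle, and ENSRNOG00000062337 had 41.0 to 152 in mitochondria and 23.1 to 211 in muscle. For these 3 the groups overlapped. ENSRNOG00000068039 had 84.4 to 287 in mitochondria and 11.3 to 25.1 in muscle, with no overlap. Of nuclear genes with any count, 62.8% lay wholly higher in mitochondria on this scale. In a fit of 24316 nuclear genes with mitochondrial genome counts as library size, where 80.7% were higher in mitochondria, 4.4% were lower, 14.9% did not pass and the median log2 fold change was 4.81, ENSRNOG00000068039 was higher by 3.41 ± 0.55 (SE, edgeR adjusted p = 7.85e-10). The others did not pass, at -0.88 ± 0.52 for ENSRNOG00000068307 (95% interval -1.91 to 0.15, edgeR adjusted p = 0.107), 0.97 ± 0.50 for ENSRNOG00000064743 (-0.01 to 1.94, edgeR adjusted p = 0.0602) and 0.14 ± 0.51 for ENSRNOG00000062337 (-0.86 to 1.14, edgeR adjusted p = 0.799). These calls changed with single libraries. ENSRNOG00000064743 passed without muscle replicate 4 or 5 (1.16 each), and without mitochondria replicate 1 (1.10), 3 (0.92), 4 (1.06) or 6 (1.08), with edgeR adjusted p of 0.0177 to 0.0472. ENSRNOG00000068307 passed without mitochondria replicate 3 (-0.99, edgeR adjusted p = 0.0195).

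Counts per mitochondrial genome count ranged less widely over the mitochondria libraries than shares did, which restates the choice of the genes and is given as a description. The highest library held 7.30 times the share of the lowest for ENSRNOG00000068307, against 3.37 times per mitochondrial genome count. The range of shares and the range per mitochondrial genome count were 6.25-fold and 3.90-fold for ENSRNOG00000064743, 8.81-fold and 3.70-fold for ENSRNOG00000062337 and 3.62-fold and 3.40-fold for ENSRNOG00000068039. In muscle they were 5.60-fold and 4.78-fold for ENSRNOG00000068307, 4.35-fold and 3.37-fold for ENSRNOG00000064743, 12.9-fold and 9.12-fold for ENSRNOG00000062337, and 2.04-fold and 2.21-fold for ENSRNOG00000068039.

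Families of abundant noncoding RNA in the same libraries, picked after their values were seen, gave the following values beside these. The 33 genes of the 5_8S_rRNA family summed to 251, 213, 141, 367, 272 and 199 nuclear CPM in mitochondria replicates 1 to 6 and to 31.2, 8.88, 14.6, 36.0, 18.3 and 19.8 in muscle. These sums were highest in replicate 4 of both kinds, as ENSRNOG00000068039 was in mitochondria and the 3 other genes were in muscle. The muscle sum was almost wholly that of ENSRNOG00000070263, named above for its slope. That gene averaged 21.0 nuclear CPM in muscle, where the family averaged 21.5, and 76.0 in mitochondria, where the family averaged 240. The 170 genes of the 5S_rRNA family, another RNA of the large ribosomal subunit, ran the other way in mitochondria, at 66.2, 68.2, 63.4, 50.8, 55.4 and 47.0 nuclear CPM in replicates 1 to 6. In muscle they summed to 0.407, 0.144, 0.145, 0.770, 0.465 and 0.286, again highest in replicate 4. At a mean of 0.370 nuclear CPM over all 170 genes, that order in muscle rests on few counts. The 26 genes of Metazoa_SRP summed to 125 to 212 in mitochondria and 741 to 2288 in muscle, where replicate 6 and not replicate 4 was highest. RNase_MRP, the RNA of an enzyme that processes ribosomal RNA precursors, had 16.4 to 172 in mitochondria, lowest in replicates 6 and 1 and highest in replicate 5, and 572 to 916 in muscle. The part of remaining ribosomal RNA in the shares of the 4 genes was not tested.

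The genes most like each member were found by the mean of the r within mitochondria and the r within muscle, on log2 share over 6 libraries each, among 18297 nuclear genes with at least 10 counts in 6 or more libraries. For ENSRNOG00000068307 these were ENSRNOG00000062337 (mean r 0.95), ENSRNOG00000064743 (0.94) and Itprid1 (0.90). For ENSRNOG00000064743 they were ENSRNOG00000062337 (0.96), ENSRNOG00000068307 (0.94) and Ppp2r2d (0.90), a regulatory subunit of a protein phosphatase, and for ENSRNOG00000062337 they were ENSRNOG00000064743 (0.96), ENSRNOG00000068307 (0.95) and Gatad1 (0.90). These 3 unnamed genes were each other's nearest by this measure, which uses the mitochondria libraries on which all 4 were chosen for following one ratio, so that likeness there comes with the choice. Their r within muscle alone was 0.90 to 0.94 on the log2 scale. ENSRNOG00000068039 had none of them among its nearest, which were Zswim4 (0.90), Ercc4 (0.90), a DNA repair endonuclease, and Mlst8 (0.89), a subunit of the mTOR complexes. The likeness does not read the size of the change: Itprid1 had an SD of log2 share of 0.25 in mitochondria and 0.29 in muscle, and at a mean of 0.0214 nuclear CPM in muscle its pattern there rests on almost no counts. The nearest mitochondrial genome gene was Mt-co2 for ENSRNOG00000068307 (0.79) and ENSRNOG00000068039 (0.78), and AY172581.8 for ENSRNOG00000064743 (0.76) and ENSRNOG00000062337 (0.77).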

How the data were processed

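Red gastrocnemius RNA of 6 rats was sequenced as isolated mitochondria and as whole muscle. The authors deposited raw counts per gene; per the submitters' processing notes, FastQC 0.74, cutadapt 4.6, STAR 2.7.11a, HTSeq and the build mRatBN7.2 were used. No source used here gives the strand setting, the annotation release or how reads with several matches were treated. Each of the 12 columns was tied to a sample by its label, 0 pairs of libraries were identical, and groups came from the titles.

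Genes named Mt- or AY172581 were taken as mitochondrial genome genes and all others as nuclear. Nuclear CPM divides a count by the nuclear counts of its library, so share and ratio have that denominator in common. Tests across genes used edgeR 4.0.16 (glmQLFit, glmQLFTest) in R 4.3.3, with filterByExpr at a minimum count of 10, Benjamini-Hochberg adjustment over all genes tested and a threshold of 0.05; DESeq2 1.42.0 was an alternative. The group and slope fits were also run on simulated data in which a small set of genes changed, equally up and down. In the group comparison here 63% of genes were higher and 30.3% lower, so the simulation does not check TMM scaling under such imbalance. SE is the absolute estimate divided by the square root of F. Correlations used all 720 pairings of 6 libraries, two-sided by absolute r, in NumPy 2.4.6 and SciPy 1.17.1, adjusted over all nuclear genes. Log2 shares for SDs and likeness had a prior count of 2. Mitochondria libraries held 720111 to 1785865 counts and muscle libraries 24309444 to 32055355, which makes counting error larger in mitochondria.

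The 4 genes, the marker lists and the tests were chosen with earlier results of these data known. Further genes named are those of the mitochondrial genome, the 2 next above and below each member in slope over mitochondria, and the 3 nuclear and 1 mitochondrial gene most like each member. RNA family sums, pairs of members, the relation within animals and that with nuclear counts were added after the values were seen. Replicate numbers pair the groups, because same-numbered libraries come from the same animal; the correlation of their deviations from the group means was -0.0065 to 0.0203 over 24679 genes. Reported fits had no animal term.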

Additional observations from a re-analysis of the deposited data

Results flagged for a closer look

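The share of ENSRNOG00000068307 in muscle replicate 4 stood far from the other muscle libraries, at 8351 nuclear CPM against 3445 in the next highest. The gap to the nearest library was 0.715 of the range of the group, above Dixon's 95% critical value for 6 samples. It was the only such value among 16 groups of 6 values examined, 4 genes in mitochondria and in muscle on 2 scales, and chance marks about 1 in 20 groups. Per 1000000 mitochondrial genome counts the same library, at 14903 against 9200 in replicate 5, stayed under it.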

How the results depend on the processing

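The group difference of ENSRNOG00000064743 was 0.98 with total counts, 1.09 with nuclear counts and -0.73 in DESeq2 (adjusted p = 0.164), and that of ENSRNOG00000062337 was 0.28, 0.40 and -1.45 (DESeq2 adjusted p = 0.0519), against -1.04 and -1.72 with TMM. Lower genes numbered 2228 with total counts, 2291 with nuclear counts and 7470 with TMM. With the 13 mRNAs as library size ENSRNOG00000064743 passed, at 1.00 (edgeR adjusted p = 0.0231). For the muscle slope, genes passing numbered 1 rising with the ratio from AY172581.9 and AY172581.24, 3 rising and 2 falling without a filter, and 254 rising and 30 falling in DESeq2, against 0 as reported; ENSRNOG00000068039 had -0.0491 with TMM factors over nuclear genes. With the ratio from the 13 mRNAs the slopes were 2.56 for ENSRNOG00000068307, 1.66 for ENSRNOG00000064743, 2.46 for ENSRNOG00000062337 and 0.98 for ENSRNOG00000068039, against 1.36, 0.98, 1.23 and 0.21 as reported, and r was 0.80, 0.69, 0.64 and 0.64 against 0.38, 0.36, 0.25 and 0.19. With that ratio and without replicate 4, a choice made after seeing the data, the slopes were 0.46, 0.42, -1.97 and 1.06, and 1 gene passed, rising. The cause was not tested.

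With single libraries left out, the group difference ranged from -3.11 to -2.35 for ENSRNOG00000068307, from -1.22 to -0.69 for ENSRNOG00000064743, from -1.98 to -0.98 for ENSRNOG00000062337 and from 1.07 to 1.48 for ENSRNOG00000068039, all called, and the higher genes from 11478 to 16363. Relative to mitochondrial genome counts it ranged from -1.03 to -0.49, 0.67 to 1.16, -0.0804 to 0.69 and 3.30 to 3.58, and lower genes from 902 to 1820, the highest without mitochondria replicate 3. In the order of the 4 genes above, the muscle slope ranged from -0.27 to 2.26, 0.0494 to 2.45, -1.65 to 4.22 and -0.13 to 0.53, with 0 to 20 genes rising and 0 to 4 falling, the most without muscle replicate 4, and r from -0.15 to 0.55, 0.0195 to 0.62, -0.38 to 0.47 and -0.0563 to 0.50. No member passed in any slope fit run.

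With the animal as a replicate block, the group differences were -2.96, -1.11, -1.54 and 1.23, and relative to mitochondrial genome counts -0.78, 0.95, 0.56 and 3.37, and no call of a member changed. Without the shallow mitochondria replicates 1 and 3, a choice made after seeing the data, all 4 group calls kept their direction. Apart from single libraries left out, 85 tested values kept their direction and side of the threshold, with sizes that could move as above. Of the others, 6 reversed direction, 2 no longer passed and 1 came to pass. Counts of 6 to 79 in mitochondria limit ENSRNOG00000062337, and the 1.56-fold range of ratios limits every slope in muscle.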
